A study of Mus musculus with 6 samples.

Results

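The genes described are 39 mitotic genes, chosen by symbol and found through their Ensembl gene identifiers. They encode the kinases, cyclins, kinesin motors, kinetochore and chromosomal passenger proteins, and midzone proteins that carry a cell through division, with *Top2a* and *Mki67*. All 39 were among the 12101 genes listed, and all 39 were among the 12088 tested. Expression was measured by RNA-seq of megakaryocyte–erythroid progenitors (MEPs), the bone marrow cells that give rise to red blood cells and platelet-producing megakaryocytes. They were sorted from adult *Nanog*-tg mice (*R26-M2rtTA;Col1a1-tetO-Nanog*), labelled as strain CD-1. There were 3 replicates from mice given doxycycline (dox) in the drinking water for 5 days and 3 from untreated mice. Both groups carry the dox-responsive *Nanog* cassette and the transactivator at *Rosa26*, so induction was not limited to blood cells and no group received dox without the cassette. MEPs were sorted from the fraction that lacks lineage markers and Sca1 and carries c-Kit, by CD34 and CD16/32. The labels do not say whether the replicates are separate animals, so the p-values measure the spread between these samples, which may be technical.

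As background, entry into mitosis is driven by CDK1 bound to cyclin A or cyclin B and is reinforced by Polo-like and Aurora kinases. Kinetochores then attach chromosomes to a spindle built and moved by kinesins, and BUB1, BUBR1, TTK and MAD2 hold back the anaphase-promoting complex (APC/C) until attachment is complete. APC/C with CDC20 destroys cyclin B, and the chromosomal passenger complex, PRC1 and KIF23 organise the midzone where the cell divides. Most of these mRNAs accumulate in G2 and M phase, so their level in a bulk sample follows the share of cells in those phases. In such a sample fewer cells of a type and less RNA per cell cannot be told apart.

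Many mitotic promoters carry a CHR element, TTTGAA or the variant TTTAAA, near the start of transcription, with CCAAT boxes upstream of it. These elements were counted in RefSeq promoters (GRCm38.p6) from 250 bases before to 50 bases after each gene start, on both strands. TTTGAA reads TTCAAA on the other strand, TTTAAA reads the same on both and CCAAT reads ATTGG. Of the 39 genes 34 had a promoter in the table. TTTGAA was found for 26 of the 34 (76.5%, against 20.2% of 27025 genes), TTTAAA for 9 (26.5%, against 14.9%) and CCAAT for 24 (70.6%, against 41.1%). Both kinds of element occurred together for 23 (67.6%, against 12.2%), and 18 had at least 2 CCAAT boxes (52.9%, against 13.1%). None of these letters was found in the windows of *Nuf2*, *Nusap1*, *Melk* and *Mad2l1*. The 4 sequences printed are those of the 3 genes with the lowest p-values among those lower with dox (*Kif23*, *Prc1*, *Plk1*) and of *Cenpa*, the gene furthest in the other direction. They run 5′ to 3′ on the strand of the gene, from 120 bases before to 30 after the start, with CHR and CCAAT elements in capitals. *Kif23* is chr9:61946770-61946919 on the reverse strand, *Prc1* chr7:80294331-80294480, *Plk1* chr7:122159315-122159464 and *Cenpa* chr5:30666766-30666915, the last 3 on the forward strand.
Kif23: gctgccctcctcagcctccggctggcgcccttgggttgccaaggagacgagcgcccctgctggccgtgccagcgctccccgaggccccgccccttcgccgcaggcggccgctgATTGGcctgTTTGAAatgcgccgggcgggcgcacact
Prc1: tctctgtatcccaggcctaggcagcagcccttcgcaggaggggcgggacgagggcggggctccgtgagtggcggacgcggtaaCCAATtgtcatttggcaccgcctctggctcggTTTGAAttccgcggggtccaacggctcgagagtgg
Plk1: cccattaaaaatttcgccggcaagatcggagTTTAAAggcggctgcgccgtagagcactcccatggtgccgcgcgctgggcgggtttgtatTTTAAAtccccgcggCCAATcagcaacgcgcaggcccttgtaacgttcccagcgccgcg
Cenpa: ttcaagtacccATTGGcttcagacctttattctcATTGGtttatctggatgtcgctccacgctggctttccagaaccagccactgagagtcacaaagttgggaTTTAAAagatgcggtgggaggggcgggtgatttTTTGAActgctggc
*Kif23* has CCAAT on its reverse strand at base -7 and TTTGAA at base 3, counting the start as base 1 and the base before it as -1. *Prc1* has CCAAT at -37 and TTTGAA at -5, or at -62 and -30 from a second, downstream start in the table, which is not printed. *Plk1* has TTTAAA at -89 and -29, CCAAT at -14 and a TTTGAA at 31, just past the printed end. *Cenpa* has reverse-strand CCAAT at -109 and -86, TTTAAA at -17 and TTTGAA at 17. *Nusap1*, the other gene with a higher mean, has none of them in its window. A match describes letters only.

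The 12101 listed genes took 11264803 to 16153600 reads in a library. A single read was worth 0.0642 to 0.0910 CPM (counts per 1000000 of a normalized library size), and each mitotic gene had 408 to 20871 reads in each library. Read counts without molecular identifiers carry amplification error as well. *Nanog* had 17062, 19609 and 15959 reads in the dox-treated libraries and 9, 13 and 1 in the untreated ones, as the labels require. Dox-treated replicate 3 stood apart. It lay at -51.7 on the second principal component of all genes tested, and limma's library quality weights gave it 0.163, the lowest of the 6. It was also the deepest library. Erythroid markers were detected in every library, with summed levels of 5679 and 5567 CPM in dox-treated replicates 1 and 2, 9573 CPM in replicate 3 and 8505 to 8968 CPM in the untreated libraries (19 of 20 listed genes tested, 3 lower past the threshold). Megakaryocyte markers summed to 619, 603 and 273 CPM with dox and 171 to 237 CPM without (12 of 15, 2 higher and 1 lower past the threshold). Granulocyte–monocyte markers summed to 541 to 811 CPM with dox and 2454 to 5661 CPM without (15 of 16, all 15 lower with dox and 11 past the threshold). Of all genes tested 3.18% were lower and 4.59% higher past the threshold, the shares to set beside the counts of each marker list. Mast cell markers summed to 681 to 858 CPM with dox and 489 to 718 CPM without (8 of 14), sums that include *Kit*, at means of 316 CPM with dox and 419 CPM without. The median log2 fold change of the mast cell markers was 0.88, and 3 were higher past the threshold, with the smallest p for *Cpa3*, a mast cell protease gene (52.6 ± 7.55 CPM with dox and 7.11 ± 2.63 CPM without, SD, n = 3, adjusted p = 0.0096, limma). Of the 8 tested, 3 were lower, none past the threshold. The smallest p among these was for *Gzmb*, at 1, 3 and 15 reads with dox and 50, 38 and 34 without (log2 fold change -3.42, adjusted p = 0.053, limma). Of the genes behind the sorting gate, *Kit* was at 316 ± 9.81 CPM with dox and 419 ± 81.8 CPM without, *Cd34* at 121 ± 54.9 and 43.2 ± 17.4 CPM and *Fcgr3*, encoding CD16, at 9.19 ± 2.73 and 19.4 ± 8.28 CPM (SD, n = 3, none past the threshold). *Cd34* had 2332, 1735 and 978 reads with dox and 741, 322 and 529 without. In a fit without dox-treated replicate 3, *Cd34* was higher past the threshold (log2 fold change 1.88, adjusted p = 0.035, limma), where 14.9% of all genes were. *Kit* and *Fcgr3* were not past it there. No marker tested was at 0 reads in any library, and the part of these populations in the mitotic values was not tested.

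The first question was whether mitotic gene expression differed between dox-treated and untreated MEPs. Of the 39 genes 37 had a lower mean log2 level with dox, and *Cenpa* and *Nusap1* a higher one, although the signs of *Melk*, *Kif2c*, *Ect2* and *Nusap1*, all near 0, turned under some alternative settings. The median log2 fold change was -0.29, against -0.03 over all genes tested, of which 52.7% were lower. No gene passed an adjusted p of 0.05 in either direction (limma with Benjamini–Hochberg adjustment over all genes tested), where 3.18% of all genes were called lower and 4.59% higher. At an unadjusted p under 0.05, 7 were lower (13.6% of all genes were) and 1 was higher (15.6%). The 3 dox-treated libraries lay below all 3 untreated ones for 8 genes, *Plk1*, *Aurka*, *Cdc20*, *Ube2c*, *Incenp*, *Cdca8*, *Kif23* and *Prc1*, and above them for *Cenpa*. Over all genes tested 18.2% lay below and 17.7% above in this way, so the lower side held about the background share of separated genes and the higher side less than it. The lower direction was nonetheless shared by nearly all members. The confidence intervals were wide, reaching a median of 0.47 to each side on the log2 scale.

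**Figure D1:**
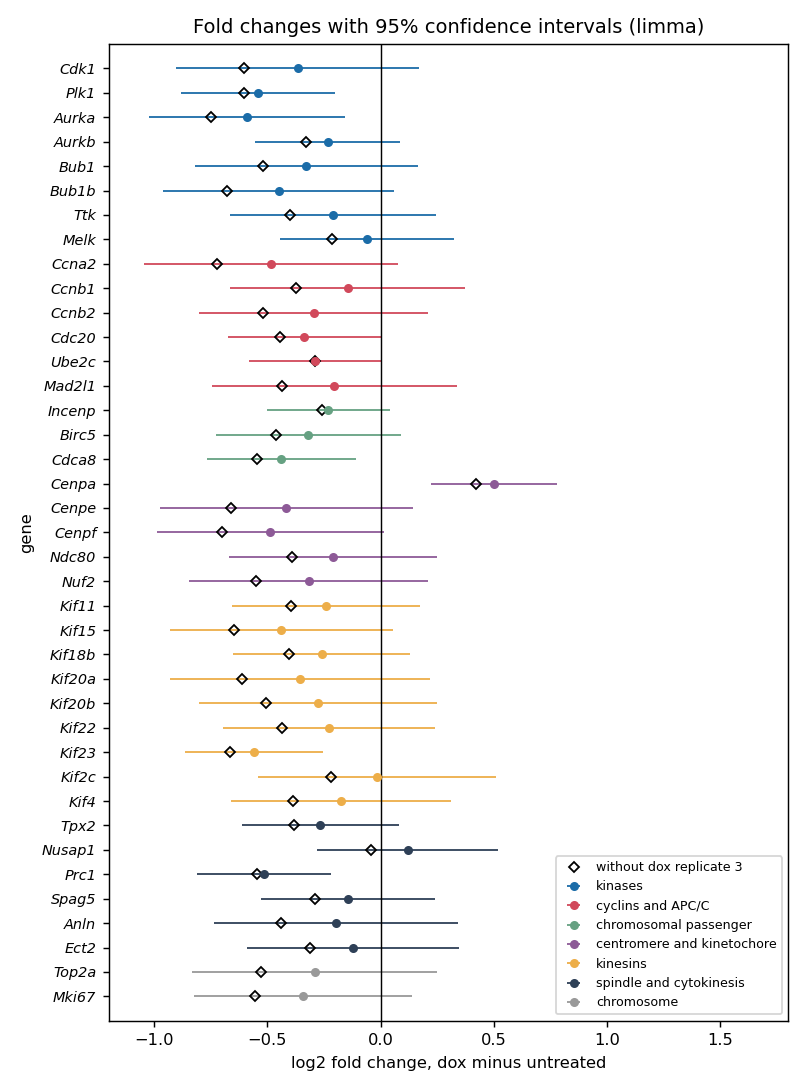
Log2 fold change of each mitotic gene, dox minus untreated, with its 95% confidence interval from limma (3 libraries against 3), coloured by role; open diamonds give the fold change without dox-treated replicate 3. The points lie left of 0 except *Cenpa* and *Nusap1*, most intervals cross 0, and most diamonds lie further left than their points.

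Most members varied together from library to library. Their mean log2 level was 6.61 and 6.60 in dox-treated replicates 1 and 2 and 7.12 in replicate 3, against 7.08, 7.11 and 6.97 in the untreated libraries. Their share of all reads was 0.546%, 0.547% and 0.715% with dox and 0.691%, 0.682% and 0.643% without. Replicates 1 and 2 were thus the 2 lowest libraries and replicate 3 was level with the highest untreated one. The means, 6.78 ± 0.29 with dox and 7.05 ± 0.07 without (SD, n = 3), differed by less than the spread of the dox-treated libraries. Replicate 3 exceeded both other dox-treated libraries for 38 of 39 genes, where 44.0% of all genes tested did. The exception was *Ube2c*, the E2 enzyme of APC/C, at 104, 99.98 and 102 CPM. The median difference of replicate 3 from the mean of replicates 1 and 2 was 0.57 on the log2 scale, against -0.00 over all genes tested, whereas replicates 1 and 2 differed from each other by a median of 0.05 and at most 0.18.

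Replicates 1 and 2 lay below every untreated library for 36 of the 39 genes (35.5% of all genes tested did), all but *Cenpa*, *Nusap1* and *Kif2c*. Replicate 3 lay above the untreated range for 20 genes, inside it for 11 and below it for 8. Without replicate 3 the median log2 fold change was -0.44, 26 genes fell and *Cenpa* rose at an adjusted p under 0.05 (limma), where 14.0% of all genes fell and 14.9% rose. These calls rest on 2 dox-treated libraries chosen after the third was seen to differ. The 12 members not called there were *Aurkb*, *Melk*, *Ube2c*, *Incenp*, *Birc5*, *Ndc80*, *Kif11*, *Kif18b*, *Kif2c*, *Nusap1*, *Spag5* and *Ect2*. The summed erythroid markers were likewise lowest in replicates 1 and 2 and highest in replicate 3, and whether they share a source with the mitotic values was not tested.

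**Figure D2:**
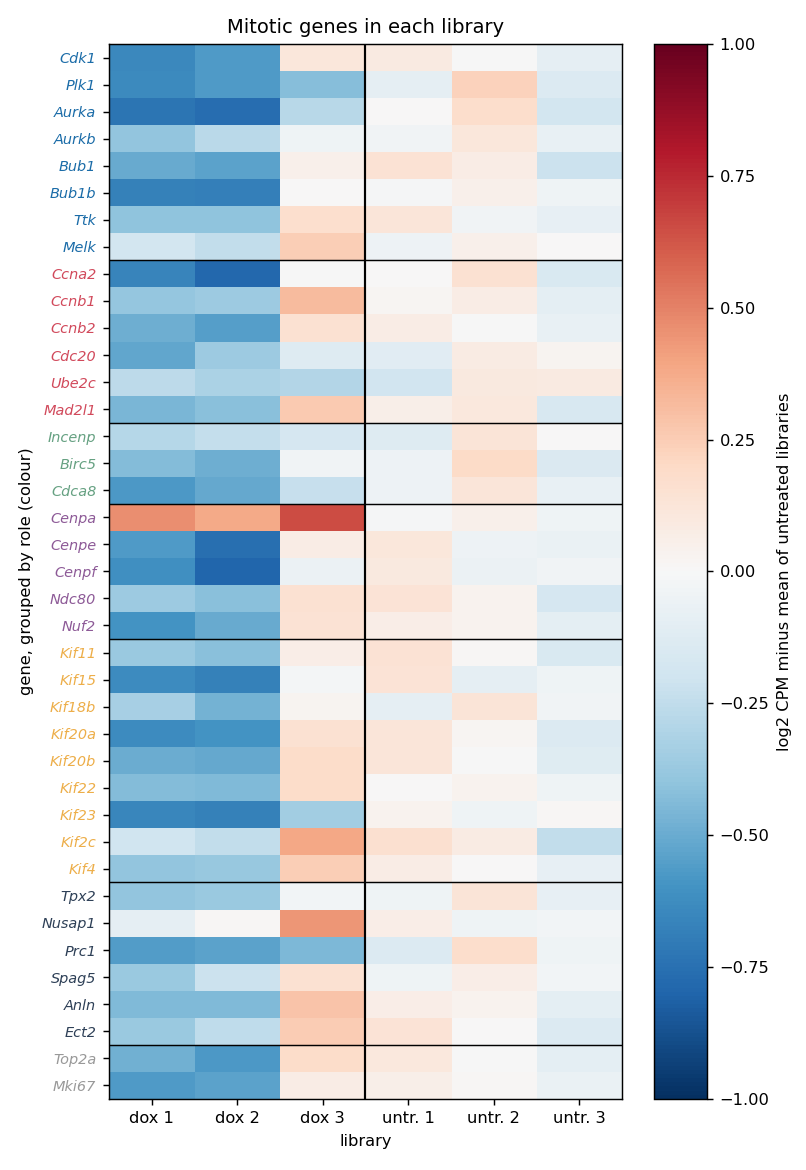
Level of each mitotic gene in each library as log2 CPM minus the mean of the untreated libraries, one row per gene ordered and coloured by role. The columns of dox-treated replicates 1 and 2 are blue for nearly every gene, whereas replicate 3 is near or above the untreated level for most and *Cenpa* is red in all 3.

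Among the kinases, all 8 were lower with dox, with a median log2 fold change of -0.35. *Plk1*, encoding the Polo-like kinase of mitotic entry and spindle assembly (chromosome 7, 129302951 to 129313389, NCBIM37), was measured at 85.3, 89.5 and 99.0 CPM with dox and 125, 156 and 121 CPM without. The groups did not overlap, and the log2 fold change of -0.54 (standard error 0.14) had an adjusted p of 0.069 (limma). *Aurka*, whose product matures centrosomes, was measured at 56.3, 55.2 and 77.2 CPM with dox and 93.9, 106 and 82.6 CPM without. Its groups also did not overlap, although replicate 3 came within a few CPM of the lowest untreated library (log2 fold change -0.59, adjusted p = 0.093, limma). *Cdk1*, the kinase that drives mitotic entry, was at 94.8, 100.2 and 160.0 CPM with dox and 158, 148 and 139 CPM without. Here replicate 3 was the highest of the 6 libraries, and the log2 fold change of -0.37 had an adjusted p of 0.31 (limma), against -0.60 and 0.019 without replicate 3. *Aurkb*, the kinase of the chromosomal passenger complex, was at 92.9, 101 and 119 CPM with dox and 119, 132 and 116 CPM without (log2 fold change -0.23, adjusted p = 0.28, limma). *Bub1b*, encoding the checkpoint protein BUBR1, had the highest CPM of the kinase genes, 123, 122 and 197 with dox and 195, 204 and 190.2 without (-0.45, adjusted p = 0.21, limma). The checkpoint kinases *Bub1* and *Ttk* differed by -0.33 and -0.21 on the log2 scale. *Melk*, a kinase gene of dividing progenitors, differed by -0.06, and its sign turned under other settings.

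The cyclins and APC/C partners were all lower, 6 of 6, with a median of -0.29. *Ccna2*, encoding cyclin A2, was measured at 214, 196 and 337 CPM with dox and 339, 375 and 304 CPM without. Replicates 1 and 2 lay far below the untreated libraries while replicate 3 lay among them (log2 fold change -0.48, adjusted p = 0.22, limma). *Ccnb1*, encoding cyclin B1, was at 160, 162 and 259 CPM with dox and 212, 220 and 195 CPM without, a log2 difference of -0.15 (limma, adjusted p = 0.67). *Ccnb2*, the other cyclin B gene, differed by -0.30. *Ube2c* was at 109, 133 and 133 CPM without dox, above all 3 dox-treated libraries (log2 fold change -0.29, adjusted p = 0.17, limma). *Cdc20*, the APC/C activator, differed by -0.34 without overlap, and *Mad2l1*, its checkpoint inhibitor, by -0.20. Part of the reads of *Ccnb1*, *Ccna2*, *Ube2c* and *Cdc20* cannot be assigned with certainty. Between 12.1% and 19.6% of their 50-base stretches also occur in another gene, for *Ccna2* and *Ube2c* mostly the opposite-strand neighbours *Exosc9* and *Tnnc2*, and the use of strand in counting is not given in the sources used here. For *Plk1* 7.65% of stretches are shared, with *Plk-ps1*, and for *Cdca8* 3.23%, mostly with the opposite-strand gene *9930104L06Rik*.

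Of the chromosomal passenger genes, which direct Aurora B to centromeres and then to the midzone, 3 of 3 were lower, with a median of -0.32. *Cdca8*, encoding borealin, was at 91.1, 95.2 and 116 CPM with dox and 131, 148 and 129 CPM without, with no overlap (log2 fold change -0.44, adjusted p = 0.096, limma). *Incenp*, the scaffold of the complex, was at 174, 180.2 and 189 CPM with dox and 194, 232 and 213 CPM without. Its groups did not overlap either, with replicate 3 close to the lowest untreated library (-0.23, adjusted p = 0.23, limma). *Birc5*, encoding survivin, differed by -0.32.

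The kinesins were lower in 9 of 9 cases, with a median of -0.26. *Kif23*, encoding the midzone motor MKLP1 (chromosome 9, 61765087 to 61794606), was measured at 38.4, 37.9 and 47.4 CPM with dox and 62.1, 58.6 and 60.9 CPM without. Its groups were well separated, and its log2 fold change of -0.56 (standard error 0.12) had the lowest adjusted p of the 39 genes, 0.051 (limma). Among 17 alternative settings 9 brought this p under 0.05, and its range was 0.0027 to 0.18. *Kif11*, the bipolar spindle motor, was at 176, 171 and 239 CPM with dox and 252, 230 and 205 CPM without (-0.24, adjusted p = 0.38, limma). The other mitotic motors, *Kif15*, *Kif18b*, *Kif20a*, *Kif20b*, *Kif22* and *Kif4*, lay between -0.44 and -0.18. *Kif2c*, a microtubule depolymerase of centromeres, lay at -0.02 with means of 68.2 CPM with dox and 68.1 CPM without. For *Kif20a* and *Kif4* 38.2% and 19.5% of 50-base stretches are shared, mostly with the opposite-strand genes *Cdc23* and *Pdzd11*.

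For spindle and cytokinesis genes 5 of 6 were lower, with a median of -0.17. *Prc1*, encoding the protein that bundles midzone microtubules and works with KIF23 (chromosome 7, 87439336 to 87461145), was at 98.3, 99.6 and 106 CPM with dox and 132, 164 and 140.2 CPM without. Replicate 3 was close to replicates 1 and 2 here, and the log2 fold change of -0.51 (standard error 0.12) had an adjusted p of 0.057 (limma). *Tpx2*, which activates Aurora A, was at 148, 151 and 191 CPM with dox and 189, 213 and 185 CPM without (-0.27, adjusted p = 0.26, limma). *Spag5*, *Anln* and *Ect2*, acting at the spindle and the contractile ring, differed by -0.14, -0.20 and -0.12. The proliferation marker *Mki67* was at 855, 875 and 1339 CPM with dox and 1319, 1278 and 1213 CPM without, so that replicate 3 was the highest library (-0.34, adjusted p = 0.29, limma, and -0.55 and 0.018 without it). *Top2a*, the topoisomerase that untangles sister chromatids, differed by -0.29. Per kilobase of exon, *Mki67* had the highest untreated level of the 39, at 126 CPM per kb, followed by *Ccnb2* at 98.5, *Ccna2* at 96.7 and *Top2a* at 92.1. The lowest was *Cenpf* at 11.4 CPM per kb.

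**Figure D3:**
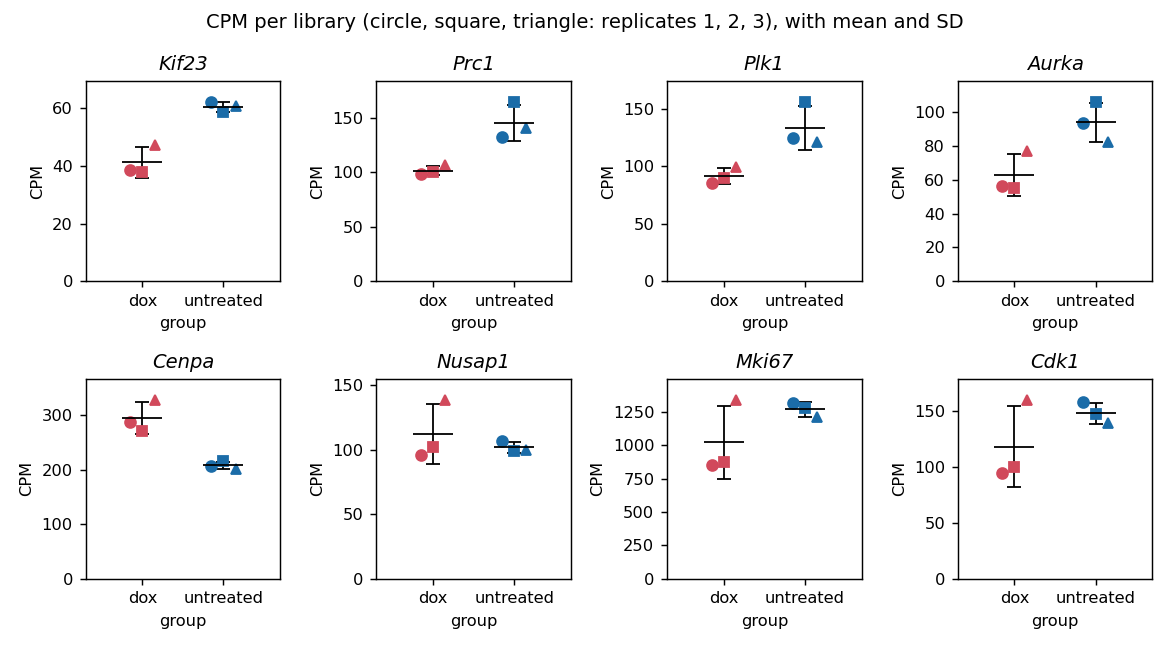
CPM of 8 mitotic genes in each library, with the mean and SD of each group (n = 3) as bars and the replicate number as the symbol. *Kif23*, *Prc1*, *Plk1* and *Aurka* are lower in all 3 dox-treated libraries, *Cenpa* is higher in all 3, and for *Nusap1*, *Mki67* and *Cdk1* dox-treated replicate 3 is the highest of the 6 libraries.

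*Cenpa* went against the 4 kinetochore genes among the 39. It encodes the histone H3 variant that marks centromeric chromatin, and lies on chromosome 5 (30969150 to 30977200). Its levels were 288, 271 and 328 CPM with dox and 207, 216 and 202 CPM without, with no overlap. The means were 296 ± 29.2 and 209 ± 6.89 CPM (SD, n = 3), and the log2 fold change was 0.50 (95% confidence interval 0.22 to 0.78, adjusted p = 0.053, limma). Its adjusted p was under 0.05 in 9 of 17 alternative settings and at most 0.19. The 4 kinetochore genes beside it had lower means with dox, none past the threshold. *Cenpe* and *Cenpf*, encoding large proteins of the outer kinetochore, had log2 fold changes of -0.42 and -0.49, and *Ndc80* and *Nuf2*, subunits of the complex that binds microtubules, of -0.21 and -0.32. *Nusap1*, a microtubule-binding protein gene, was at 95.7, 103 and 139 CPM with dox and 107, 99.2 and 99.98 CPM without. Replicate 3 lay above every untreated library and replicate 1 below every one. The log2 fold change of 0.12 (adjusted p = 0.65, limma) was -0.04 without replicate 3.

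Because most members varied together between libraries, each was also set against the mean log2 level of the other 38 in the same library. *Cenpa* exceeded that mean by 1.60, 1.52 and 1.27 log2 units with dox and by 0.63, 0.66 and 0.71 without, a separation of 0.80 between the group means. *Nusap1* stood at -0.03, 0.08 and -0.00 with dox and -0.35, -0.49 and -0.33 without, so that replicate 3 no longer stood apart from the other dox-treated libraries. *Aurka* stood at -0.81, -0.84 and -0.87 with dox and -0.54, -0.39 and -0.62 without. *Kif23* stood at -1.38, -1.40 and -1.59 with dox and -1.15, -1.27 and -1.07 without. Without overlap, 7 genes were relatively higher with dox (*Cenpa*, *Nusap1*, *Kif2c*, *Melk*, *Spag5*, *Ccnb1* and *Kif4*) and 4 relatively lower (*Aurka*, *Kif23*, *Cenpf* and *Bub1b*), where 26.0% and 5.79% of all genes tested did so against the mean of the 39. For *Plk1* and *Prc1*, with differences of -0.27 and -0.24, the groups overlapped on this scale. The higher count lies below its background share, and nothing is read from these counts.

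**Figure D4:**
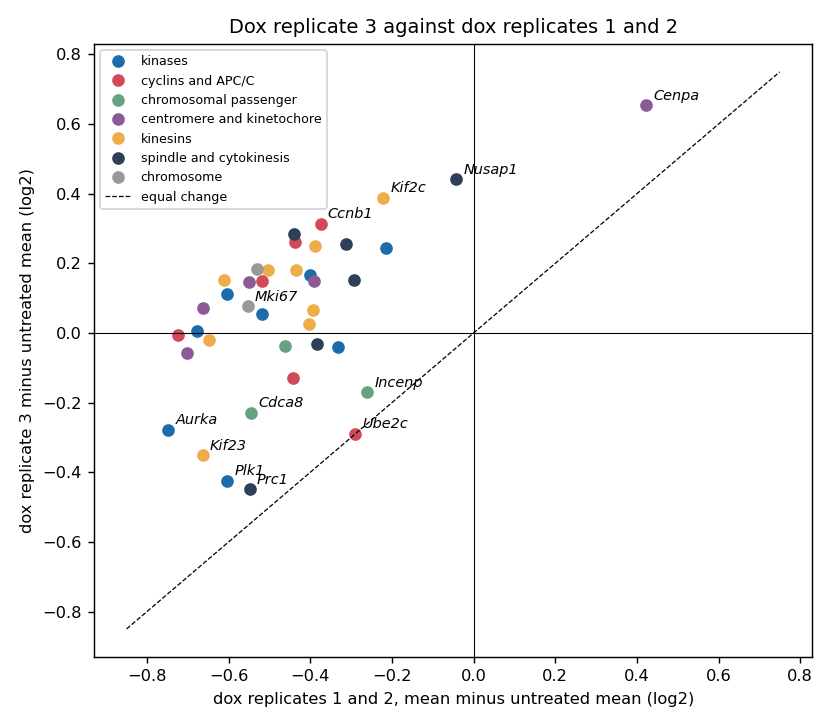
Each mitotic gene by its log2 difference from the untreated mean, in dox-treated replicates 1 and 2 (their mean, horizontal axis) and in replicate 3 (vertical axis), with a dashed line of equal change. All points but *Ube2c*, which is on the line, lie above it. *Prc1* and *Incenp* come close to the line, and *Cenpa* is the point at upper right.

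Genes of the mitotic machinery beyond the 39 were examined next. Of 120 tested in 5 lists (of 125 listed), 96 were lower, with a median of -0.17, where 52.7% of all genes tested were lower. *Cit*, the citron kinase gene of cytokinesis, fell from 131 ± 16.5 to 76.4 ± 6.56 CPM (log2 fold change -0.77, adjusted p = 0.032, limma). *Cdc25b*, encoding a phosphatase that activates CDK1, rose from 16.4 ± 2.09 to 27.4 ± 1.68 CPM (SD, n = 3, 0.75, adjusted p = 0.032, limma). They were the 1 gene lower and the 1 gene higher past the threshold, where 3.18% of all genes tested were lower and 4.59% higher. Without dox-treated replicate 3, 37 were lower and 1 higher past the threshold, where 14.0% and 14.9% of all genes tested were. Leaving out each of the other libraries in turn lost both calls, with adjusted p-values (limma) of up to 0.11 for *Cit* and 0.13 for *Cdc25b*.

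By complex, 29 of 34 other kinetochore subunits were lower (median -0.19), with the smallest p for *Nsl1* (-0.52, adjusted p = 0.059, limma), while *Cenpb*, which binds centromeric DNA, had 52.8 CPM without dox and 77.4 CPM with it (0.56, adjusted p = 0.10, limma). Of other entry and spindle genes 37 of 45 were lower (-0.22), of APC/C genes, a list of core subunits with *Fzr1*, *Ube2s* and the inhibitor gene *Fbxo5*, 13 of 16 (-0.12), of condensin subunits 7 of 8 (-0.14) and of cohesin genes 10 of 17 (-0.14). *Stag2*, a cohesin subunit gene, had the smallest p among the higher cohesin genes (0.52, adjusted p = 0.13, limma), and *Ube2s* the smallest among the lower APC/C genes (-0.46, adjusted p = 0.12, limma). Others with the smallest p of their list and direction were *Pds5b* (cohesin, -0.29, adjusted p = 0.16, limma), *Ncapd3* and *Ncaph* (condensin, -0.23 and 0.06, adjusted p = 0.36 and 0.84, limma) and *Anapc2* (APC/C, 0.13, adjusted p = 0.41, limma). None of the condensin, cohesin, APC/C and other kinetochore genes passed the threshold in the 6 libraries, where 3.18% of all genes tested were lower and 4.59% higher. Regardless of the threshold, 52.7% of all genes tested were lower.

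Of the transcription regulators of mitotic genes 11 of 15 were lower, with a median of -0.10. *Foxm1*, an activator of G2 genes, was at 64.0 ± 5.56 CPM with dox and 70.2 ± 4.57 CPM without (-0.14, adjusted p = 0.46, limma). *Mybl2*, its partner at CHR promoters, was at 108 ± 13.5 and 138 ± 8.04 CPM (-0.36, adjusted p = 0.13, limma). Over all genes tested 3.18% were lower and 4.59% higher past the threshold. *E2f4*, a subunit of the repressive DREAM complex that binds the same promoters, was the one gene of this list past it, at 205 ± 17.8 CPM with dox and 335 ± 52.0 CPM without (SD, n = 3, -0.70, adjusted p = 0.047, limma). That call was lost without any library other than dox-treated replicate 3 (adjusted p up to 0.16, limma). *Rbl2*, another DREAM subunit gene, was at 78.4 and 60.4 CPM (0.38, adjusted p = 0.086, limma).

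Of 40 S phase genes 38 were lower, with a median of -0.32 and mean log2 levels of 6.93, 6.89 and 7.38 with dox and 7.38, 7.47 and 7.30 without. *Cdt1*, a replication licensing gene, was the one S phase gene past the threshold (-0.55, adjusted p = 0.047, limma, up to 0.17 without a library other than dox-treated replicate 3), where 3.18% of all genes were lower and 4.59% higher. Without replicate 3, 27 S phase genes were lower past the threshold, where 14.0% of all genes were. *Tk1*, encoding thymidine kinase, was the higher S phase gene with the smallest p (0.22, adjusted p = 0.39, limma). Other kinesin genes were examined as a list, mainly of motors that work in interphase but also holding *Kif2a*, a microtubule depolymerase gene that also acts at spindle poles. Of 19 tested (of 24 listed), 15 were higher with dox, with a median of 0.30 and mean log2 levels of 4.24, 4.31 and 3.71 with dox and 3.85, 3.67 and 3.88 without. As for the mitotic kinesins, replicate 3 was nearer the untreated libraries than replicates 1 and 2 were. *Kif21a* was the one gene of this list past the threshold, and was lower (2.97 ± 0.36 CPM without dox, 0.889 ± 0.271 CPM with it, SD, n = 3, adjusted p = 0.018, limma), where 3.18% of all genes were lower and 4.59% higher. *Kif21a* had only 8, 15 and 15 reads with dox and 37, 36 and 37 without. Its adjusted p was 0.071, 0.059 and 0.078 without untreated replicates 1, 2 and 3. *Kifap3*, an adaptor of kinesin-2, had 20.9 CPM with dox and 13.7 CPM without (0.61, adjusted p = 0.051, limma). Without replicate 3, 8 genes of this list, *Kifap3* among them, were higher and 1 was lower past the threshold, against 14.9% and 14.0% of all genes.

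**Figure D5:**
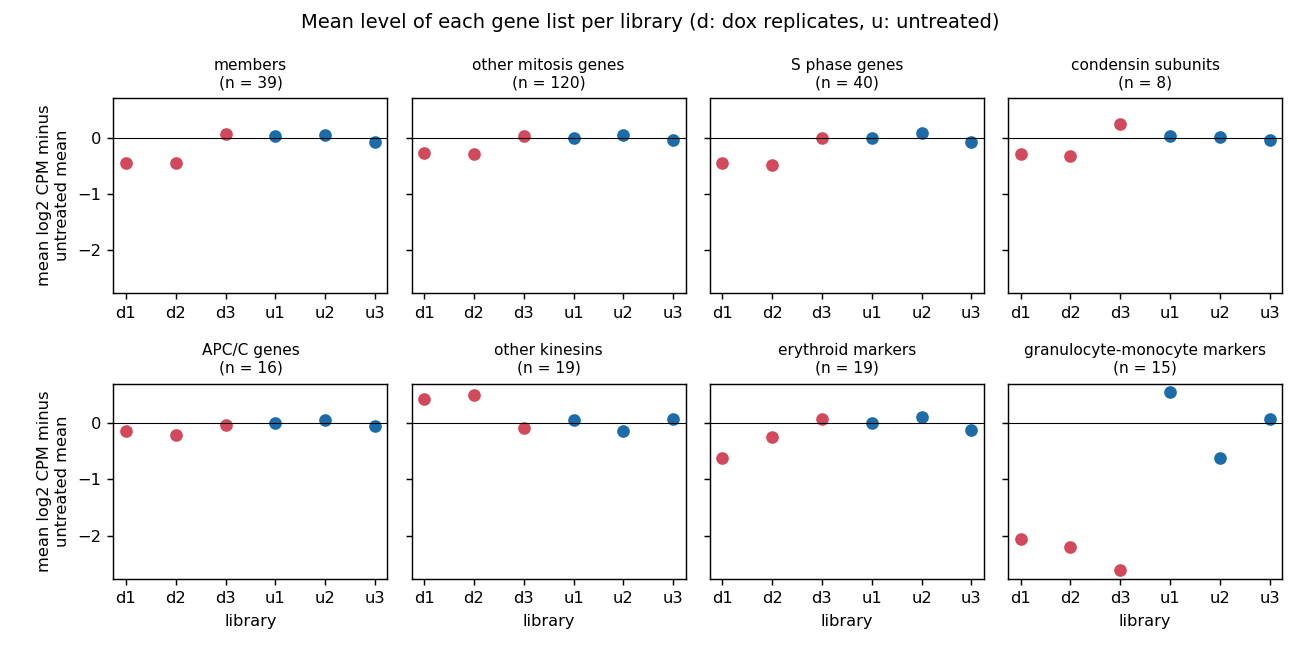
Mean log2 CPM of each gene list in each library, minus the mean of the untreated libraries, for dox-treated (red, d1 to d3) and untreated (blue, u1 to u3) replicates; n is the number of genes. In the mitotic, S phase and condensin panels d3 lies level with or above the untreated libraries and d1 and d2 below them, in the panel of other kinesins d1 and d2 lie above, and granulocyte–monocyte markers are low in all 3 dox-treated libraries.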

How the data were processed

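RNA-seq libraries (NEBNext Ultra) of sorted MEPs were grouped by GEO's labels into 3 dox-treated and 3 untreated. Per the labels and methods, the authors trimmed adapters with Cutadapt, quantified reads with RSEM on the NCBIM37 transcriptome and normalized with limma. They deposited log2 CPM with 0.5 reads added, for 12101 genes, 1 column per replicate. How library sizes were normalized and genes filtered is not given in the sources used here. Reads were recovered from the values (largest deviation from a whole number 6.6e-09 reads). Fold changes are on this log2 scale.

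The 12088 genes that reached 1 CPM in 3 or more libraries were fitted with limma 3.58.1 (R 4.3.3; lmFit, eBayes, no block or weights) and adjusted by Benjamini–Hochberg with a threshold of 0.05. The code was tested on simulated data. Printed CPM values are recovered reads over the authors' library size. An exact permutation test of 3 against 3 libraries cannot give a p under 0.1 and was not used for calls. Principal components and 17 alternatives were computed. Gene positions are those of the NCBIM37 annotation, and promoters those of RefSeq (GRCm38.p6). Figures used Python 3.11.15 with pandas 2.3.3 and matplotlib 3.10.9.

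The members and gene lists were chosen with earlier results of these data known. Values in every library are given for the member with the smallest p and the highest mean in each role, for *Mki67*, *Cdk1*, *Ccnb1*, *Plk1*, *Aurka* and *Aurkb*, and for members against the majority. In other lists the rule named *Foxm1*, *Mybl2* and the gene with the smallest p in each direction, and marker lists are given by their summed levels. The 4 promoters, the ratios within libraries and further genes named in passing were chosen after their values were seen. Listed genes without a row in the table were not analysed here, nor were motifs in the proteins.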

Additional observations from a re-analysis of the deposited data

How the results depend on the processing

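The median log2 fold change of the 39 mitotic genes kept its sign and moved by less than the spread between libraries under all 17 alternatives, from -0.44 without dox-treated replicate 3 to -0.18 with libraries scaled by total reads. That scaling adds 1 constant per library and so moved every gene, and the median of all genes, by 0.11, which leaves the mitotic genes 0.26 below that median by construction. The count called was less stable. With 0 lower and 0 higher in the fit reported, it was 29 and 1 with library quality weights, 5 and 1 with a mean-variance trend, 3 and 1 with voom precision weights, a mean of at least 5 CPM or a pseudocount of 5 CPM, 2 and 1 with a pseudocount of 1 CPM, and 1 and 1 with quantile normalization or scaling by total. Of all genes, 21.5% were lower and 20.8% higher past the threshold with library quality weights, and 2.37% to 6.18% lower and 5.09% to 7.52% higher under the other settings named. Leaving out each replicate in turn gave 0 to 26 lower and 0 to 1 higher, the 26 and the 1 only without dox-treated replicate 3, where 14.0% and 14.9% of all genes were called (0.298% to 1.04% and 0.761% to 1.18% without another library). Library quality weights also give that library the least weight, and for the other alternatives the cause was not tested. For the other mitosis genes, with 1 lower and 1 higher, and read against the same shares of all genes, the counts were 50 and 4 with library quality weights, 6 and 1 with the trend, 5 and 1 with voom weights, 7 and 1 or 2 and 1 with pseudocounts of 5 or 1 CPM, 3 and 1 at a mean of at least 5 CPM, 2 and 2 with quantile normalization and 0 and 1 with scaling by total. Leaving out a replicate gave 0 to 37 lower and 0 to 1 higher, the 37 and the 1 without dox-treated replicate 3.

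A sign changed only for genes near 0. With scaling by total *Melk* was at 0.0492 and *Kif2c* at 0.0926, *Kif2c* was at 0.0042 under quantile normalization, and *Nusap1* at -0.0311 with library quality weights. With a replicate left out, *Melk* ran from -0.2143 to 0.0324, *Kif2c* from -0.2208 to 0.0946, *Ect2* from -0.3127 to 0.0016 and *Nusap1* from -0.042 to 0.225.

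In the fit blocked on replicate number (replicate block), which called 0.24% of all genes lower and 0.438% higher, 0 mitotic genes were called, and 0 lower and 0 higher among the other mitosis genes. With voom weights and the block (2.9% and 4.76% of all genes) these were 0 mitotic genes, and 1 lower and 0 higher of the others. The deviations of same-numbered libraries correlated at 0.0184, -0.121 and -0.299, and 1 of 6 libraries correlated best with its own number. No pairing by number was seen, although a check with 3 libraries per group cannot exclude it. Protein motifs were not run.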
